A study of Mus musculus with 2 samples.

Results

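The genes of antioxidant defence, glutathione metabolism and the selenoproteins were read in the gastrocnemius, a fast limb muscle of the calf, from 5xFAD/CAST mice. The 47 genes were taken from a fixed list of symbols, out of 55536 genes in the deposited gene tables. The list was chosen with earlier results of these data known. All 47 symbols were found, and each matched 1 gene identifier. They fall into 10 families, from the superoxide dismutases to the metallothioneins. The series held 2 libraries of total RNA, labelled biological replicates 2 and 1, from adult males of 8 to 10 months. The strain is labelled as a cross of 5xFAD, which carries mutant human transgenes (APP among them) under a neuronal Thy1 promoter, with CAST, an inbred strain derived from Mus musculus castaneus. The labels give the strain and not the transgene state of each animal. Each library started from 300 ng of RNA, and ERCC spike-in RNA was added. Both libraries trace to the same donor record through different biosamples, and the labels do not say whether different animals were used, so the spread between the libraries may be technical. All samples belong to 1 group. There was no wild-type muscle, other age or other tissue to set them against, and no p-value was computed. Each mean ± SD below is taken over both libraries (n = 2).

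Cells remove superoxide in steps. Superoxide dismutases turn it into hydrogen peroxide, which catalase, the glutathione peroxidases and the peroxiredoxins then reduce to water. The peroxidases draw electrons from glutathione or thioredoxin, and the reductases of these carriers draw them from NADPH. The transcription factor NRF2, the product of Nfe2l2, is held by KEAP1 until oxidants or electrophiles release it, and it then raises the transcription of many of these enzymes. Selenoproteins carry selenocysteine in place of cysteine at the reactive site. The residue is encoded by UGA, which otherwise ends translation and is read through with the help of an RNA hairpin in the 3′ untranslated region. Skeletal muscle is known for producing superoxide during contraction and for a high level of selenoprotein W.

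10 of the 47 genes encode selenocysteine in the GENCODE M21 annotation, with 19 such codons between them. Their surroundings are shown because they set the selenoproteins apart from relatives that use cysteine at the same place. Each line holds coding sequence of the named transcript on its own strand in mm10, read from the annotation's transcript sequences. Capitals mark the selenocysteine codon, written TGA as in DNA, or in Gpx7 and Gpx8 the codon that aligns with it. Up to 12 bases on either side are given, ending at the stop codon where that comes sooner.
Gpx1-201, codon 47 of 201, + strand, chr9:108339451-108339453: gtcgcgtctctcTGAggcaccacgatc
Gpx3-201, codon 73 of 226, + strand, chr11:54907256-54907258: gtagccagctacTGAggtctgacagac
Gpx4-202, codon 73 of 197, + strand, chr10:80054737-80054739: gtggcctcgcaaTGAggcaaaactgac
Gpx7-201, codon 56 of 186, - strand, chr4:108403430-108403432: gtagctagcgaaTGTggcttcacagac
Gpx8-201, codon 79 of 209, - strand, chr13:113045661-113045663: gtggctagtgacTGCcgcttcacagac
Selenow-201, codon 13 of 88, - strand, chr7:15920464-15920466: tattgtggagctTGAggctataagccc
Selenom-201, codon 48 of 145, + strand, chr11:3516273-3516275: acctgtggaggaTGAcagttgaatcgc
Selenot-201, codon 49 of 195, + strand, chr3:58585238-58585240: atttgtgtatccTGAgggtaccggcgg
Selenon-201, codon 428 of 557, - strand, chr4:134542338-134542340: gaccagtcctgcTGAggttccgggcgg
Txnrd1-201, codon 498 of 499, + strand, chr10:82896037-82896039: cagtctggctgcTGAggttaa
Txnrd2-203, codon 526 of 527, + strand, chr16:18477772-18477774: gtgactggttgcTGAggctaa
Selenop-201, codon 59 of 380, + strand, chr15:3274848-3274850: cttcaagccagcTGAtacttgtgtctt

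The glutathione peroxidases Gpx1, Gpx3 and Gpx4 carry TGA at a codon where Gpx7 has TGT and Gpx8 has TGC, both of which encode cysteine. In Selenow, Selenom and Selenot a cysteine codon lies 3 codons before the TGA, and in Selenon, Txnrd1 and Txnrd2 it lies directly before it. The TGA of both thioredoxin reductases is the last codon but 1 before the stop, so that 1 codon follows it. Selenop, which transports selenium in plasma, has 10 TGA codons. The remaining 9 lie at codons 259 to 377 of 380, towards the end of the coding sequence.

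Both libraries were deep and alike in size. Gene counts summed to 35412240 in replicate 2 and 35163970 in replicate 1. The members ranged from 38 and 51 counts for Gpx8 to 20104 and 20608 counts for Nfe2l1 in replicates 2 and 1, and 41 of the 47 had a mean of at least 100 counts. The tissue label was in keeping with its markers: the 6 muscle fibre markers had a median of 14548 TPM in replicate 2 and 15147 TPM in replicate 1. TPM is the deposited abundance per transcript length, scaled to the same total in each library. Endothelial markers, summed over 8 genes, stood at 51.5 and 69.0 TPM, and adipocyte markers, summed over 6 genes, at 155 and 215 TPM. No marker of these lists was at 0.

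Every member was expressed. All 47 reached 1 TPM in both libraries, as did 45.7% of the 22015 nuclear protein-coding genes. At 10 TPM or more in both stood 32 members and 19.0% of nuclear protein-coding genes, and at 100 TPM or more 6 members and 2.37%. The median member stood at 24.5 TPM in replicate 2 and 27.6 TPM in replicate 1, or 26.1 ± 2.18 TPM. The median of the nuclear protein-coding genes that reached 1 TPM was 8.07 ± 0.58 TPM. By mean level, 25 members lay in the upper 10% of nuclear protein-coding genes and 3 in the top 1%, namely Selenow, Nfe2l1 and Gpx4. The list was chosen by name, with earlier results of these data known, and leaves out some genes of each family. These shares therefore describe the list and not the families as a whole. Of 134 further genes of the same pathways, read below, 102 reached 1 TPM in both libraries.

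By mean level the members spanned from Selenow, with 832 TPM in replicate 2 and 834 TPM in replicate 1, to Selenon, with 1.51 and 1.71 TPM. Selenon overlapped with the next lowest gene, Gpx8 (1.49 and 2.12 TPM), which was the lower of them in replicate 2. Between the ends the members fell into a graded order, in which 27 of the 46 neighbouring pairs overlapped between the libraries. After Selenow, Nfe2l1 (251 ± 24.3 TPM) and Gpx4 (243 ± 2.39 TPM) overlapped with each other, as did Gstp1 (177 ± 8.0 TPM) and Sod2 (174 ± 15.7 TPM), and Sod1 (146 ± 6.9 TPM) lay below all of these in both libraries. The 5 highest members held 55.1 ± 0.82% of the summed TPM of the list, which was 3045 ± 139.

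**Figure D1:**
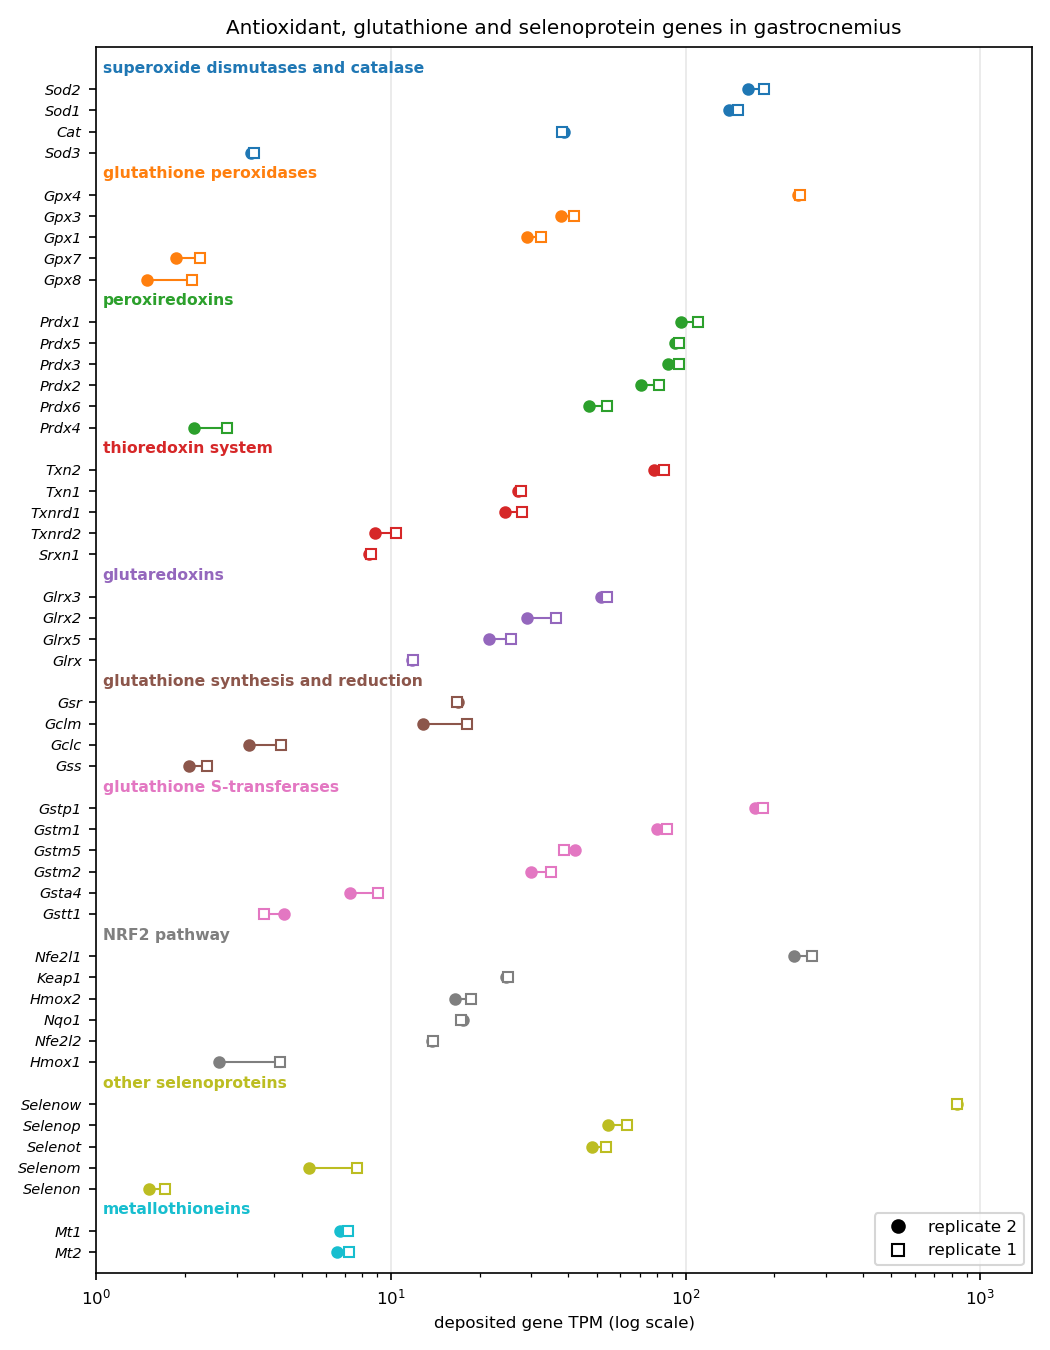
Deposited gene TPM (log scale) of the 47 members, grouped by family and ordered by level within each. Filled circles are replicate 2, open squares are replicate 1 and lines join them. Selenow stands alone at 832 and 834 TPM, and every family but the metallothioneins holds members at least a few fold apart.

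Placed by the compartment for which each protein is best known, most of the gene-level TPM belonged to genes of cytosolic proteins. The 23 cytosolic members summed to 1719 TPM in replicate 2 and 1797 TPM in replicate 1, which was 57.8 ± 0.84% of the list's TPM. Selenow made up much of this, and the other 22 cytosolic genes summed to 925 ± 53.6 TPM. The 6 mitochondrial members summed to 411 ± 34.4 TPM, or 13.5 ± 0.52%. Their median of 56.9 ± 4.6 TPM stood above the cytosolic median of 26.1 ± 2.18 TPM in both libraries. Protein-coding transcripts of these 6 genes summed to 263 ± 20.7 TPM, with 43.7 ± 5.28 TPM from Sod2 and 9.24 ± 0.488 TPM from Glrx5. On that scale the mitochondrial share was 10.03 ± 0.411% and the cytosolic share 62.0 ± 0.878%, and the medians were 37.8 ± 5.24 and 24.4 ± 0.559 TPM. The 4 genes whose products go to several compartments (Gpx1, Gpx4, Prdx5 and Gsr) summed to 384 ± 6.7 TPM, and the 2 transcription factors to 265 ± 24.4 TPM. Secreted proteins (Sod3, Gpx3 and Selenop) took 3.35 ± 0.14%, the peroxisomal catalase 1.26 ± 0.07%, and the 8 genes of the endoplasmic reticulum 2.83 ± 0.19%, with a median of 2.94 ± 0.78 TPM. The compartment is that of the gene's protein as generally described and was not measured here.

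**Figure D2:**
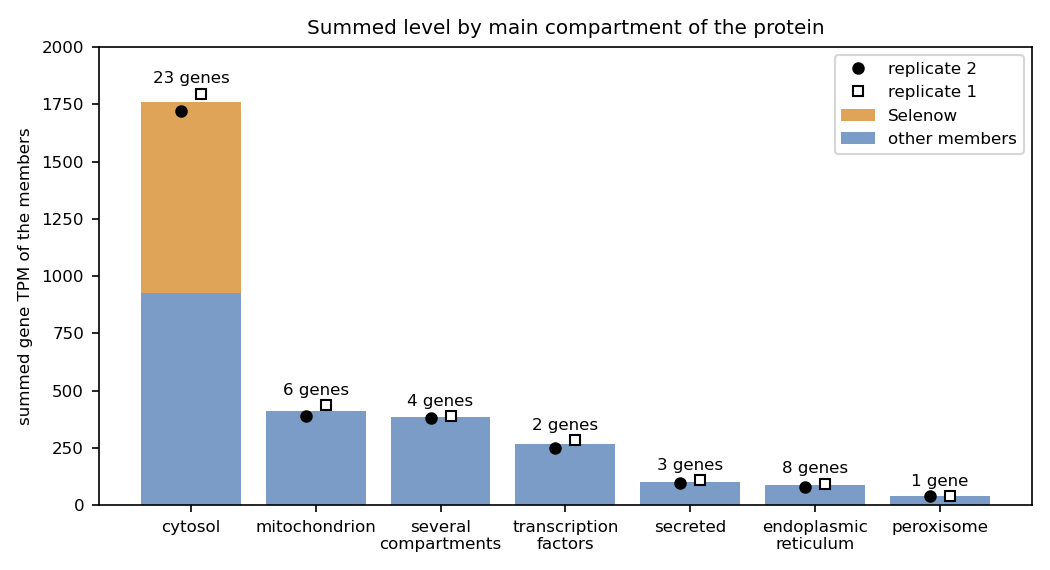
Summed gene TPM of the members by main compartment of the protein; bars are means of both libraries from 0, circles are replicate 2, squares are replicate 1 and the number of genes is written above each bar. The cytosolic bar stands at 1758 TPM, of which Selenow is the upper part, and the 8 genes of the endoplasmic reticulum sum to 86.4 TPM.

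Gene-level TPM of the superoxide dismutases was divided mainly between the genes of the cytosolic and the mitochondrial enzyme. Sod2, the manganese enzyme of the mitochondrial matrix (ENSMUSG00000006818.5, chromosome 17, 13006846 to 13040063), had 162 TPM in replicate 2 and 185 TPM in replicate 1. Sod1, the copper and zinc enzyme of the cytosol (ENSMUSG00000022982.10, chromosome 16, 90220754 to 90226329), had 141 and 150 TPM. Sod2 was therefore the higher of the pair in both libraries and took 54.3 ± 1.08% of their sum. Sod3, the secreted enzyme of the extracellular matrix, had 3.35 and 3.42 TPM, and Cat, which encodes catalase, had 38.6 and 38.2 TPM.

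The order of Sod1 and Sod2 turned round when transcripts annotated as protein coding were taken alone. Of the TPM of Sod2, 24.6% in replicate 2 and 25.7% in replicate 1 belonged to protein-coding transcripts, nearly all of it to the 5861-base Sod2-201. The 1138-base processed transcript Sod2-207 held 51.4 and 51.7%, and the 644-base retained-intron form Sod2-204 held 22.0 and 21%. By expected counts, which are not divided by length, protein-coding transcripts held 66.8 and 68.0% of Sod2. The protein-coding TPM of Sod2 was 43.7 ± 5.3, against 145 ± 6.9 for Sod1, a ratio of Sod1 over Sod2 of 3.34 ± 0.24. In the kallisto-layout table, the second quantification deposited for the same libraries, this ratio was 3.63 ± 0.26 and the gene-level share of Sod2 was 51.6 ± 1.16%. Whether the shorter transcripts of Sod2 are separate molecules in this muscle was not tested.

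Among the glutathione peroxidases, Gpx4 led. It reduces lipid hydroperoxides within membranes (ENSMUSG00000075706.10, chromosome 10, 80047166 to 80056439) and had 241 TPM in replicate 2 and 244 TPM in replicate 1. Gpx3, the secreted enzyme of plasma, had 37.8 and 41.9 TPM, and Gpx1, the widely expressed enzyme of cytosol and mitochondria, had 28.9 and 32.3 TPM. Gpx4 thus exceeded Gpx1 7.94 ± 0.55 fold and Gpx3 6.10 ± 0.38 fold. In the kallisto-layout table these ratios were 7.05 ± 0.44 and 5.48 ± 0.21. In protein-coding transcripts by RSEM they were 6.31 ± 0.37 and 4.85 ± 0.25. The cysteine relatives of the endoplasmic reticulum were the lowest, Gpx7 with 1.87 and 2.24 TPM from 53 and 68 counts, and Gpx8 with 1.49 and 2.12 TPM from 38 and 51 counts. The 3 members with TGA at the aligned codon therefore all stood above the pair with TGT or TGC in both libraries.

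Transcripts of Gpx4 that carry the selenocysteine codon held 78.9% of its TPM in replicate 2 and 80.0% in replicate 1 of the RSEM table, and 100% and 99.7% in the kallisto-layout table. Gpx4-202, the 197-codon form, led in both. The remainder in the RSEM table was mostly Gpx4-203, a retained-intron form of 280 bases with 20.8 and 19.8%, which the kallisto-layout table listed at 0. Gpx4-201, whose coding sequence of 759 bases is known for the nuclear form of sperm cells, held 0.40 and 0.18%. For Gpx1 the tables gave a less settled split. Gpx1-201, which holds the TGA, had 57.6 and 37.6% in the RSEM table and 67.4 and 50.1% in the kallisto-layout table, and most of the rest went to Gpx1-204, a shorter protein-coding form with no annotated selenocysteine codon.

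The peroxiredoxins reduce peroxides through a reactive cysteine, and at the gene level 5 of the 6 stood above 47 TPM in both libraries. Prdx1 of the cytosol had 96.3 TPM in replicate 2 and 109.96 TPM in replicate 1, Prdx5, which is found in several compartments, had 92.4 and 95.2 TPM, and Prdx3 of the mitochondrial matrix had 87.0 and 94.7 TPM. Prdx2, the second cytosolic form, followed with 70.8 and 81.4 TPM, and Prdx6, which also acts on phospholipids, with 47.2 and 54.1 TPM. In the kallisto-layout table Prdx2 had 102 and 115 TPM, above Prdx3 (89.4 and 93.3 TPM) and Prdx5 (78.7 and 81.2 TPM). Protein-coding transcripts of Prdx2 came to 49.0 ± 0.44 TPM by RSEM and 43.2 ± 1.86 TPM in the kallisto-layout table. Protein-coding transcripts of Prdx6 came to 7.06 ± 1.84 TPM, and to 4.26 ± 1.34 TPM in the kallisto-layout table, against 102 ± 9.07 TPM for those of Prdx1. Prdx4, the enzyme of the endoplasmic reticulum, had 2.15 and 2.77 TPM from 52 and 63 counts, and did not overlap with any other peroxiredoxin. The family summed to 417 ± 29.9 TPM, and its protein-coding transcripts to 345 ± 19.2 TPM. Srxn1, the sulfiredoxin that repairs overoxidized peroxiredoxins, had 8.43 and 8.59 TPM.

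In the thioredoxin system the mitochondrial carrier was the higher and the mitochondrial reductase the lower. Txn2, the mitochondrial thioredoxin, had 78.4 TPM in replicate 2 and 84.2 TPM in replicate 1, against 27.0 and 27.6 TPM for the cytosolic Txn1, a ratio of 2.98 ± 0.11. Txnrd1, the cytosolic reductase, had 24.4 and 27.8 TPM, against 8.84 and 10.4 TPM for the mitochondrial Txnrd2, a ratio of 2.71 ± 0.07. Both orders held in the kallisto-layout table, with ratios of 2.73 ± 0.12 for the carriers and 2.48 ± 0.03 for the reductases. Transcripts with the penultimate TGA made up 99.2% of Txnrd1 in replicate 2 and 97.6% in replicate 1. For Txnrd2 they made up 73.3 and 76.9%, and the rest was assigned to short partial transcripts that differed between the libraries: Txnrd2-206 had 21.6% in replicate 2 and 0% in replicate 1, and Txnrd2-205 had 3.05% and 23.1%.

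Glutaredoxins use glutathione to reduce mixed disulfides or to carry iron-sulfur clusters. Glrx3, the cytosolic form with roles in iron handling, led with 51.8 TPM in replicate 2 and 54.1 TPM in replicate 1. Glrx2 had 29.0 and 36.2 TPM, Glrx5, needed for mitochondrial iron-sulfur clusters, had 21.5 and 25.6 TPM, and Glrx, the classical cytosolic enzyme, had 11.8 and 11.9 TPM. In protein-coding transcripts the order of the last pair turned round, with 9.58 and 8.89 TPM for Glrx5 against 11.7 and 11.8 TPM for Glrx, a ratio of Glrx5 over Glrx of 0.786 ± 0.047, and of 0.761 ± 0.119 in the kallisto-layout table. Glrx2 is best known as a mitochondrial protein, but its leading transcript, Glrx2-202, had an annotated coding sequence of 369 bases and held 84.0 and 87.5% of its TPM. Glrx2-210, with a coding sequence of 468 bases, was listed at 0% in the RSEM table and at 6.53 and 3.28% in the kallisto-layout table. The location of the encoded forms was not measured.

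Of the enzymes that make glutathione, Gclc and Gss were among the lowest of the list and Gclm was not. Gclc, the catalytic subunit of glutamate-cysteine ligase and the rate-limiting step of glutathione synthesis, had 3.29 TPM in replicate 2 and 4.23 TPM in replicate 1. Gclm, the modifier subunit of the same ligase, had 12.8 and 18.1 TPM, which exceeded Gclc 4.08 ± 0.27 fold. In the kallisto-layout table this ratio was 5.77 ± 0.07, and in protein-coding transcripts alone it was 2.33 ± 0.01 by RSEM and 2.04 ± 0.28 in the kallisto-layout table. Gss, glutathione synthetase, which adds glycine in the final step, had 2.06 and 2.37 TPM, with 103 counts in each library. Gsr, the reductase that regenerates glutathione, stood above both ligase subunits in replicate 2 (16.9 TPM) and between Gclm and Gclc in replicate 1 (16.7 TPM). In the kallisto-layout table Gsr lay below Gclm in both libraries, at 16.6 and 22.0 TPM against 20.9 and 22.7 TPM. In protein-coding transcripts by RSEM Gsr lay above Gclm in both, at 10.3 and 11.9 TPM against 7.63 and 9.89 TPM. The 4 genes summed to 38.2 ± 4.5 TPM, and their protein-coding transcripts to 25.8 ± 3.6 TPM. Gclm was less certain than the others: the kallisto-layout table put it at 21.8 ± 1.24 TPM, against 15.5 ± 3.7 TPM in the gene table, and 34.4 and 31.6% of it there was protein coding, against 59.6 and 54.6% in the RSEM table.

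Glutathione S-transferases, which join glutathione to electrophiles, were led by the pi class. Gstp1 (chromosome 19, 4035407 to 4037985) had 172 TPM in replicate 2 and 183 TPM in replicate 1. Its near copy Gstp2 had 92.8 and 114 TPM, so Gstp1 took 63.3 ± 2.30% of the pair. The deposited posterior SD, which measures how uncertain the division of reads is, reached 2.01% of the count for Gstp1, the highest value of any member, and the kallisto-layout share was 69.5 ± 1.15%. Protein-coding transcripts held 78.4 and 79.3% of Gstp1 in the RSEM table and 70.3 and 67.1% in the kallisto-layout table. Most of the rest was the retained-intron form Gstp1-203. The mu class followed with Gstm1 at 79.9 and 86.4 TPM, Gstm5 at 42.1 and 38.6 TPM and Gstm2 at 29.8 and 34.96 TPM, all 3 within a cluster on chromosome 3. Gsta4, an alpha-class enzyme that clears the lipid aldehyde 4-hydroxynonenal, had 7.26 and 9.05 TPM, and Gstt1 of the theta class had 4.32 and 3.71 TPM from 110 and 81 counts.

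In the NRF2 pathway the related factor NRF1 was by far the higher. Nfe2l1, which encodes NRF1, a factor of the endoplasmic reticulum membrane that controls proteasome genes (ENSMUSG00000038615.17, chromosome 11, 96817414 to 96829968), had 234 TPM in replicate 2 and 268 TPM in replicate 1. Nfe2l2 had 13.8 and 13.9 TPM, so that Nfe2l1 exceeded it 18.1 ± 1.61 fold, and 19.7 ± 0.82 fold in the kallisto-layout table. Protein-coding transcripts held 68.3 and 66.0% of Nfe2l1 and 96.8 and 93.7% of Nfe2l2 in the RSEM table, and the protein-coding TPM of Nfe2l1 was 168 ± 12.3. In these transcripts Nfe2l1 exceeded Nfe2l2 12.8 ± 1.13 fold, and 15.4 ± 1.53 fold in the kallisto-layout table. Keap1, the NRF2 repressor, had 24.5 and 24.97 TPM, or 1.79 ± 0.01 times Nfe2l2. Nqo1, a quinone reductase and a widely used NRF2 target, had 17.6 and 17.3 TPM. Of the heme oxygenases, which open the heme ring, the constitutive Hmox2 had 16.4 and 18.8 TPM, and the inducible Hmox1 had 2.61 and 4.21 TPM. Hmox2 exceeded Hmox1 5.38 ± 1.30 fold, the widest relative spread of the ratios between genes given here. Hmox1 rests on 104 and 150 counts.

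The selenoproteins held a large part of the list's RNA, and Selenow held most of theirs. The 10 selenoprotein genes took 43.5% of member TPM in replicate 2 and 41.9% in replicate 1, or 42.7 ± 1.15%. Selenow, a small cytosolic protein of the thioredoxin fold (ENSMUSG00000041571.9, chromosome 7, 15917208 to 15922402), took 27.4 ± 1.22% of member TPM and 64.1 ± 1.11% of selenoprotein TPM. It ranked 44 among the nuclear protein-coding genes by mean TPM and rested on 14377 and 13557 counts. All of its TPM lay in its sole annotated transcript, and it exceeded Gpx4, the next selenoprotein, 3.43 ± 0.03 fold. This ratio was 4.01 ± 0.11 in the kallisto-layout table. In protein-coding transcripts alone it was 4.32 ± 0.08 by RSEM and 4.02 ± 0.10 in the kallisto-layout table. Without Selenow the selenoprotein share of the list was 21.1 ± 0.27%.

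The other selenoproteins of this family stood much lower. Selenop, the plasma selenium carrier with its 10 TGA codons, had 54.6 TPM in replicate 2 and 63.3 TPM in replicate 1. Selenot, a thioredoxin-like protein of the endoplasmic reticulum membrane, had 48.1 and 53.9 TPM and lay below Selenop without overlap. Selenom, a further protein of the endoplasmic reticulum with the same spacing of cysteine and selenocysteine codons, had 5.29 and 7.68 TPM from 88 and 120 counts. Selenon, a protein of the same compartment whose loss causes a congenital myopathy in people, had 1.51 and 1.71 TPM from 137 and 146 counts, the lowest mean of the list, with values that overlapped those of Gpx8. Selenot exceeded Selenon 31.7 ± 0.26 fold and Selenom 8.06 ± 1.47 fold.

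The metallothioneins, small proteins that bind zinc and copper, were low and level with each other. Mt1 had 6.69 TPM in replicate 2 and 7.14 TPM in replicate 1, and Mt2 had 6.56 and 7.20 TPM, a ratio of Mt1 over Mt2 of 1.01 ± 0.02. In the kallisto-layout table both were higher, at 8.96 ± 0.22 and 10.5 ± 0.56 TPM, and the ratio was 0.856 ± 0.067. Each gene rested on 69 to 84 counts, so their order was not detectable at this depth.

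By TPM, most members were carried by protein-coding transcripts, with a few exceptions. The annotation lists 222 transcripts for the 47 genes, of which 142 are protein coding. Protein-coding transcripts held at least 90% of the TPM in both libraries for 37 members in the RSEM table and 34 in the kallisto-layout table, where 54.2% of the nuclear protein-coding genes at 1 TPM or more did so in the RSEM table. They held under 50% in both tables and both libraries for 3 members, Sod2, Prdx6 and Glrx5. Of the nuclear protein-coding genes at 1 TPM or more, 5.79% were under 50% in both libraries by RSEM, so such genes were not particular to this list.

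Prdx6 had the lowest protein-coding share of all members. It was 12.2% in replicate 2 and 15.5% in replicate 1 of the RSEM table, and 6.23 and 8.70% in the kallisto-layout table. Prdx6-208, annotated as a target of nonsense-mediated decay, led with 57.5 and 59.8%, and the processed transcript Prdx6-204 followed with 27.3 and 22.7%. The protein-coding TPM of Prdx6 was 7.06 ± 1.84, out of a gene level of 50.6 ± 4.9 TPM. For Glrx5 the protein-coding share of TPM was 44.6 and 34.7%, and the processed transcript Glrx5-202 held 55.4 and 65.3%. By TPM, Prdx2 and Gclm fell under 50% in the kallisto-layout table alone. Prdx2 had 43.8 and 36.4% there, against 68.8 and 60.6% in the RSEM table. Its retained-intron form Prdx2-205 held 55.5 and 62.9% and 29.2 and 38.4% in these tables. By expected counts of RSEM, which are not divided by length, protein-coding transcripts held 78.3 and 70.8% of Glrx5 in replicates 2 and 1. The same shares were 84.9 and 80.4% for Prdx2, 83.0 and 76.8% for Gclm and 21.5 and 25.8% for Prdx6.

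**Figure D3:**
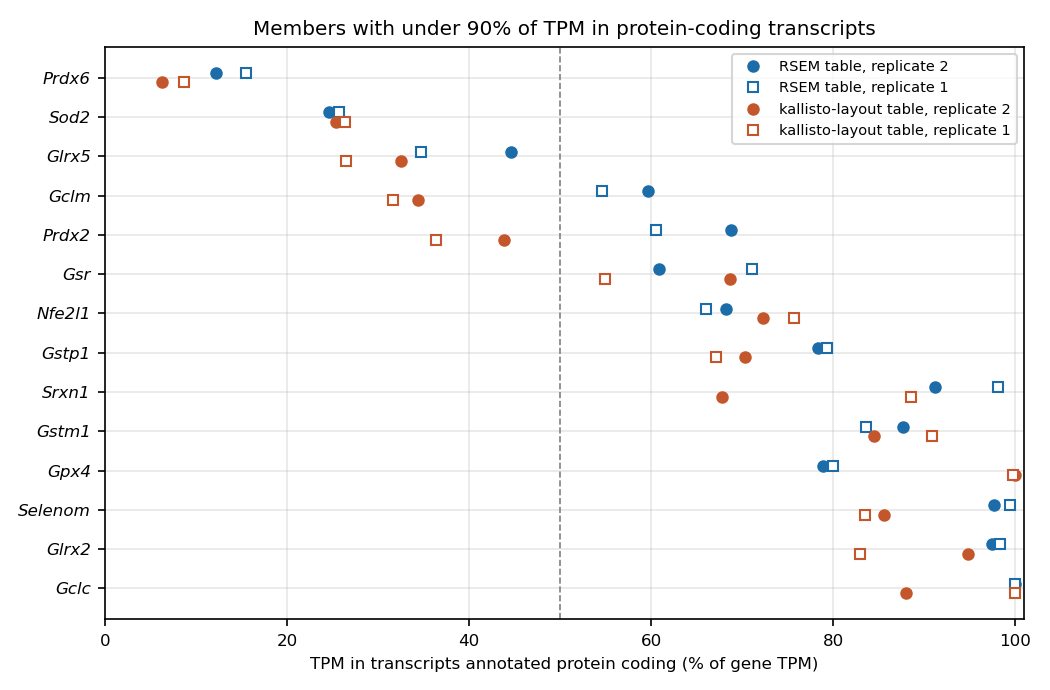
Share of gene TPM in transcripts annotated protein coding, in percent, for the 14 members that fall under 90% in any table and library. Blue is the RSEM table, orange the kallisto-layout table, filled circles replicate 2 and open squares replicate 1; the dashed line marks 50%. Prdx6, Sod2 and Glrx5 lie left of the line at all 4 points, and Gclm and Prdx2 lie left of it in the kallisto-layout table only.

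The tables named the same leading transcript for 42 of the 47 members. They differed for Nfe2l1, Selenop, Prdx5, Gpx1 and Gclm. For Selenop the RSEM table gave 90.3 and 88.9% to Selenop-201, and the kallisto-layout table gave 73.6 and 83.6% to Selenop-203. Both forms have the same coding length of 1140 bases and 10 selenocysteine codons, so the encoded length does not differ. For Prdx5 the RSEM table divided its reads over Prdx5-205 (45.7 and 40.8%), Prdx5-201 (37.0 and 42.9%) and Prdx5-204 (14.3 and 11.4%), while the kallisto-layout table listed Prdx5-205 and Prdx5-204 at 0. For 16 members, Selenow, Sod1, Prdx3, Txn1 and Nqo1 among them, 1 transcript held at least 90% throughout. At the gene level the kallisto-layout mean lay within 0.322 of the gene table on the log2 scale for 43 members. For the other 4 it was higher, by 1.53 fold for Mt2, 1.42 fold for Prdx2, 1.41 fold for Gclm and 1.30 fold for Mt1.

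The libraries differed little in these genes. Of the 41 members with a mean of at least 100 counts, 2 lay apart by at least 0.322 on the log2 scale, or 4.88%. Over all 9742 genes with that many counts the share was 7.63%. Both members were lower in replicate 2, and 4.35% of all genes tested were lower by that much. At 1.5-fold there were 0 members, beside 1.23% of all genes. The median log2 ratio of replicate 2 over replicate 1 was 0.02 over the members, with the middle 50% between -0.08 and 0.09, and 0.00 over all genes tested. These ratios come from counts scaled by TMM and compare 2 libraries, not conditions, with no replicate check.

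Hmox1 and Selenom were the members that lay apart. Hmox1 had 104 counts in replicate 2 and 150 counts in replicate 1, which put its log2 ratio at -0.47 (exact binomial 95% interval -0.85 to -0.11), and the ratio was -0.50 in the kallisto-layout table. Selenom had 88 and 120 counts, with a ratio of -0.39 and an interval of -0.81 to 0.01, which includes equality. In the kallisto-layout table Selenom stood at -0.29, short of 0.322. The intervals hold counting error alone, since reads are not independent molecules. Markers of other cell types also differed. Of 7 endothelial markers with enough counts 4 were lower in replicate 2 by at least 0.322, with a median log2 ratio of -0.42, and of 6 adipocyte markers 5, with a median of -0.38. Of 6 smooth muscle and pericyte markers 2 were lower and 0 higher (median -0.20), and 1 of 3 satellite cell markers was lower (median -0.27). Fibroblast markers lay the other way, with 2 of 6 higher and 0 lower (median 0.12), as did tenocyte markers, with 1 of 5 higher and 0 lower (median 0.19). Erythroid (median -0.21) and Schwann cell and axon markers (median -0.20) had 0 of 3 beyond that size. Leukocyte markers summed to 31.4 and 34.98 TPM and had a median of 0.06, with 0 of 4 lower by that much. The part of these cells in the ratios of Hmox1 and Selenom was not tested, and in bulk tissue fewer cells of a type and less RNA per cell cannot be told apart.

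Of the 41 members 16 had a ratio below 0, as did 49.3% of all genes tested. Counting intervals excluded equality for 11 of the 41 members, or 26.8%, and for 24.3% of all genes tested. They lay below 0 for 5 members, beside 11.9% of all genes, and above 0 for 6, beside 12.5%. The 5 lower ones were Hmox1, Prdx1 (-0.14, interval -0.21 to -0.06), Prdx6 (-0.12, -0.23 to -0.02), Selenop (-0.09, -0.17 to -0.02) and Sod2 (-0.08, -0.12 to -0.04). Of the 6 higher ones Gstm5 had the highest ratio of all members, 0.26 with an interval of 0.13 to 0.40, from 968 counts in replicate 2 and 835 counts in replicate 1. The others were Nqo1 (0.17), Nfe2l2 (0.14), Selenow (0.14, interval 0.10 to 0.17), Gpx4 (0.12) and Cat (0.09). On deposited TPM all genes tested had a median of -0.13 and the members one of -0.16, and there Gpx4 stood at -0.02, Nfe2l2 at -0.02 and Selenow at 0.00, so the direction of such small ratios depends on the scale. Gclm turned from 0.19 on counts to -0.50 on TPM, beside the different transcript lengths to which its reads were assigned in each library. Below the count minimum, Gstt1 had a log2 ratio of 0.49 (0.07 to 0.93) and Gpx8 of -0.37 (-1.02 to 0.26).

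**Figure D4:**
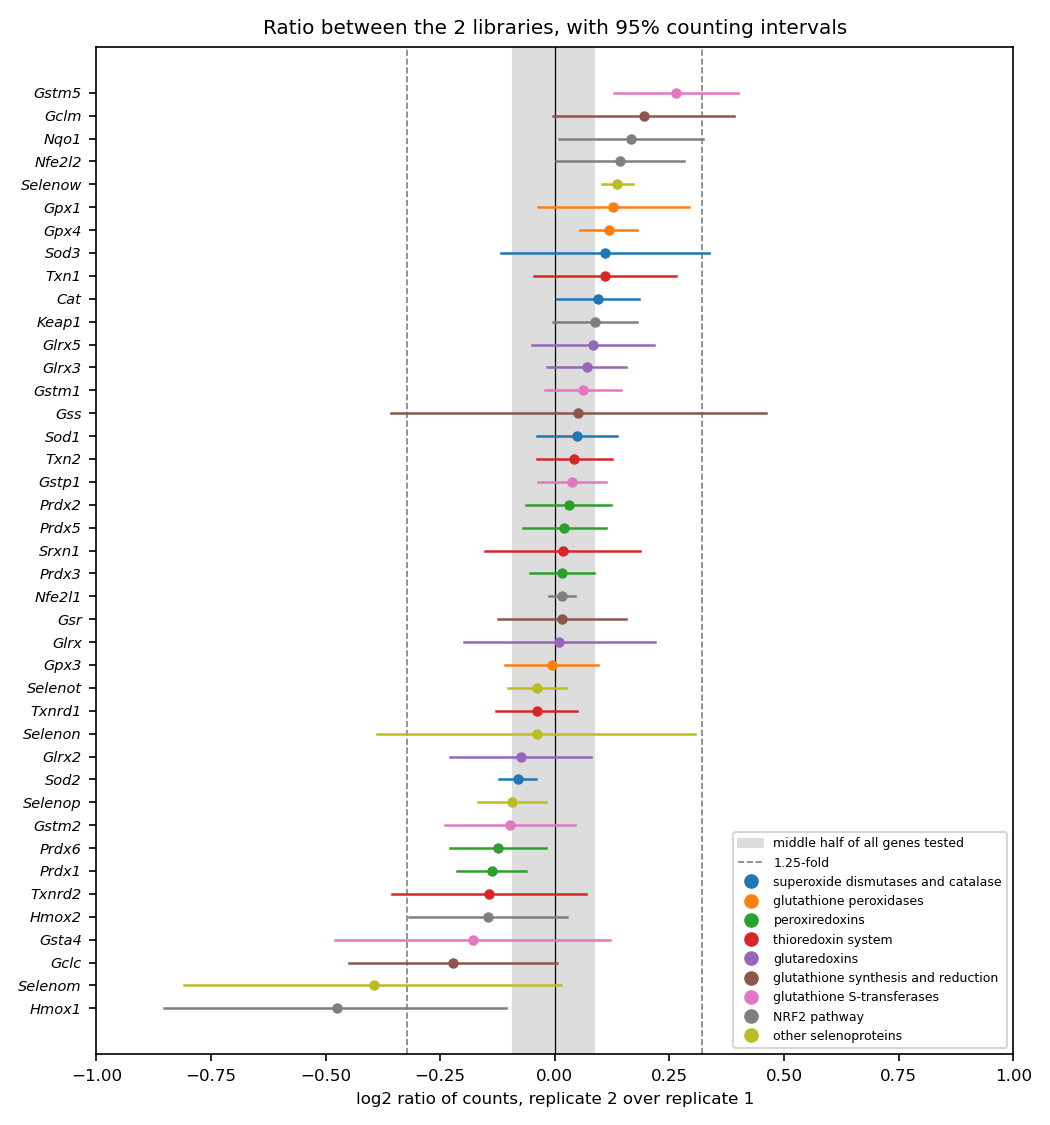
Log2 ratio of counts, replicate 2 over replicate 1, of the 41 members with a mean of at least 100 counts, with exact binomial 95% intervals of counting error. Colours mark families, the grey band the middle 50% of all 9742 genes tested and the dashed lines a log2 ratio of 0.322 either way. Hmox1 at -0.47 and Selenom at -0.39 are the members beyond the lines, and Gstm5 at 0.26 is the highest.

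Further genes of the same pathways were read from 10 lists with 134 genes, of which 102 reached 1 TPM in both libraries. Of 96 with at least 100 counts, 4 were higher and 5 lower in replicate 2 by at least 0.322 on the log2 scale, beside 3.27% and 4.35% of all genes tested. The other selenoproteins were led by Msrb1, a methionine sulfoxide reductase (82.1 TPM in replicate 2 and 71.2 TPM in replicate 1), Selenof (51.3 and 51.1 TPM) and Selenok (37.8 and 36.7 TPM), and 9 of their 14 reached 1 TPM in both. None of these stood near Selenow. The genes that insert selenocysteine or supply selenium had a median of 4.59 and 5.05 TPM. Rpl30, a ribosomal protein that also binds the selenocysteine hairpin, had 203 and 222 TPM, Pstk, the kinase that prepares the selenocysteine tRNA, had 14.0 and 17.3 TPM, and Sephs1 had 6.21 and 8.38 TPM.

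Among the genes of these lists with at least 100 counts, the one furthest below equality was Txnip. It was listed beside the thioredoxin-fold genes and methionine sulfoxide reductases. Txnip, which binds thioredoxin and curbs glucose uptake, had 147 TPM in replicate 2 and 255 TPM in replicate 1, a log2 ratio of -0.65 from 9653 and 15700 counts (interval -0.69 to -0.61). Txn1 and Txn2, its binding partner and the mitochondrial relative, had ratios of 0.11 and 0.04. Msrb3 had 57.3 and 58.0 TPM, and Txnl1 had 46.98 and 52.5 TPM. Chac1, which degrades glutathione, went the other way with 46.98 TPM in replicate 2 and 26.3 TPM in replicate 1, a log2 ratio of 0.98 from 1961 and 1033 counts (interval 0.87 to 1.09). The synthesis genes Gclc, Gclm and Gss had ratios of -0.22, 0.19 and 0.05. Slc7a11, which imports cystine for glutathione synthesis in many cells, had 0.03 and 0.04 TPM, and its partner Slc3a2 had a mean of 11.9 TPM. Both were named after their values were seen.

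Among the other glutathione S-transferases, after Gstp2, the membrane-bound Mgst3 had 70.9 TPM in replicate 2 and 80.0 TPM in replicate 1 and Mgst1 had 35.2 and 36.3 TPM, while 10 of the 19 genes reached 1 TPM in both. Glo1 and Hagh, the pair that clears methylglyoxal with glutathione, had 71.4 and 82.1 TPM and 24.9 and 28.5 TPM. Of 17 NRF2 partners, repressors and targets, 15 reached 1 TPM. Fth1, the ferritin heavy chain, had 1004 and 1025 TPM, above every member. Sqstm1, the autophagy adaptor that binds KEAP1, had 264 and 273 TPM, and Cul3, the ubiquitin ligase scaffold to which KEAP1 brings NRF2, had 116 and 121 TPM.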

How the data were processed

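Total RNA of the gastrocnemius was sequenced in 2 libraries of 1 group after spike-in addition, per the labels. Per the file headers, the deposited gene and transcript tables of RSEM hold expected counts (reads matching more than 1 gene are shared out), TPM and the posterior SD of the counts, used here as a score of divided reads. A second deposited transcript table, in the layout kallisto writes and with estimated counts and TPM, was summed per gene and is called the kallisto-layout table. All are on mm10 with GENCODE M21 identifiers, and reads of CAST alleles were not separated. The sources used here name no aligner. Spike-in and phiX rows (0.474% of counts in replicate 2 and 0.527% in replicate 1) and 26248 rows of short sequences were left out, and 86 genes without an entry in the kallisto-layout table were taken as 0 there.

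Levels are the authors' TPM. Ratios are of expected counts rounded to whole numbers, with TMM factors (edgeR 4.0.16, R 4.3.3) over genes averaging 10 or more counts, and a prior of 0.5 counts. Genes averaging 100 or more counts were called at a log2 ratio of 0.322 in size. As alternatives, ratios were scaled by DESeq2 1.42.0 size factors, by totals of each library or of its spike-ins, or taken from deposited TPM, with a changed prior or count minimum, from the kallisto-layout table, and levels from each library alone. Transcript types and selenocysteine codons were read from the M21 annotation. Gpx7 and Gpx8 were each aligned with Gpx1, Gpx3 and Gpx4 by their translations (Biopython 1.88). The ratio and interval steps were tested on simulated counts. Named are all 47 members and, from each further list, the 3 of highest mean TPM and any gene averaging 100 counts whose log2 ratio reaches 0.58 in size. The members and lists were chosen with earlier results of these data known.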

Additional observations from a re-analysis of the deposited data

How the results depend on the processing

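The count of members at 1 TPM in both libraries was 47 in the kallisto-layout table, with each library alone (47 and 47) and in protein-coding transcripts, an alternative added after seeing the data, and 38 members reached 5 TPM. The median member was at 24.5 TPM without replicate 1 and 27.6 TPM without replicate 2, and at 58.1 TPM when TPM was rescaled over nuclear protein-coding genes, which removes mitochondrial and structural RNA from the total. The Sod2 share of Sod1 and Sod2 was 53.6% and 55.1% with each library alone, 51.6% in the kallisto-layout table and 23.1% in protein-coding transcripts. The selenoprotein share was 43.5% and 41.9% with each library alone, 41.2% in the kallisto-layout table, 47.6% in protein-coding transcripts and 21.1% without Selenow. The count of members apart by 0.322 or more on the log2 scale was 4 on deposited TPM (19.0% of all genes), 1 in the kallisto-layout table (7.07%), 4 of 47 with a mean count of at least 10 (21.2%), 4 without a filter (17.6%) and 0 at 1.5-fold, a fold added after seeing the data. The median log2 ratio of the members was -0.16 on deposited TPM, where all genes stood at -0.13, -0.04 with library totals (all genes -0.06) and 0.11 with spike-in totals (all genes 0.09). Of 369 ratios of single members over 9 settings, 43 moved beyond their counting spread, 22 of them on deposited TPM and 17 with spike-in totals, and neither of the ratios called with TMM, Hmox1 and Selenom, turned sign. Gclm, not called with TMM at 0.19, stood at -0.50 on deposited TPM and is 1 of the 4 called there. The count of members with a protein-coding leading transcript was 44 in replicate 2 alone and 42 in replicate 1 alone. Levels of members, ratios between them, family sums and compartment shares in protein-coding transcripts were also added after seeing the data. No paired analysis was possible because the series holds 1 group. The cause of these shifts was not tested. Counts near 100 limit Hmox1, Selenom, Gss, Gpx7, Gpx8, Prdx4, Gstt1 and the metallothioneins, and an SD over 2 libraries is itself imprecise.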

Other observations

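Genes that feed or surround the antioxidant enzymes were expressed at uneven levels. Of 15 genes of NADPH supply, all of which reached 1 TPM in both libraries, Idh2, the mitochondrial isocitrate dehydrogenase, was the highest with 126 TPM in replicate 2 and 152 TPM in replicate 1. Me1, the cytosolic malic enzyme, had 100.97 and 107 TPM, and the mitochondrial Me3 had 46.2 and 48.4 TPM. G6pdx, the entry enzyme of the pentose phosphate pathway, had a mean of 1.74 TPM and Pgd, a later enzyme of that pathway, 7.54 TPM. These values were singled out after they were seen. Nnt, which makes NADPH from the mitochondrial proton gradient, had 22.6 and 32.5 TPM, with a posterior SD of up to 10.7% of its count, above the 5% taken here as a mark of divided reads.

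Of 13 genes that produce oxidants, 6 reached 1 TPM in both libraries, as did 45.7% of nuclear protein-coding genes. Their median was 0.86 TPM in replicate 2 and 1.02 TPM in replicate 1. Nos1, the nitric oxide synthase of the muscle membrane, led with 26.4 TPM in replicate 2 and 25.5 TPM in replicate 1, followed by Xdh, xanthine dehydrogenase, with 19.5 and 20.5 TPM and Maob, a monoamine oxidase of mitochondria, with 6.87 and 9.15 TPM. The NADPH oxidase genes Nox4 and Cybb had means of 0.82 and 0.76 TPM. Among 12 genes of copper delivery and further peroxide and aldehyde defence, Park7, which encodes DJ-1, had 361 and 367 TPM, above every member but Selenow. The aldehyde and aldose reductases Akr1a1 and Akr1b3 had 78.6 and 91.5 TPM and 72.5 and 86.8 TPM. Ccs, the chaperone that loads copper into SOD1, had a mean of 8.94 TPM and was named after its value was seen. In the metal response list Mtf1, the factor that controls metallothionein genes, had 6.0 and 6.51 TPM, the zinc importer Slc39a14 had 3.90 and 3.73 TPM and the exporter Slc30a1 had 3.62 and 3.88 TPM, beside 6.69 and 7.14 TPM for Mt1.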
